A study of Mus musculus with 4 samples.

Results

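Cycling conventional dendritic cell (cDC) nuclei were taken from 2 single-nucleus libraries of mouse liver in which RNA and open chromatin were read from the same nuclei (10x Multiome). Among 40915 nuclei with 1000 or more UMIs (unique molecular identifiers, each a counted transcript), 926 met the rule, 308 of 14282 at D0 and 618 of 26633 at D5. The members were chosen by measured UMIs of marker genes. A nucleus was called cycling when the UMIs of Top2a, Mki67, Knl1, Kif11 and Cenpe together came to 4 or more. It also had to hold 1 or more UMIs of the cDC lineage genes Xcr1, Clec9a, Clec10a, Cd209a or Sirpa. Nuclei with over 1 UMI of the lymphoid genes Txk, Ncr1 and Cd3e, over 1 UMI of the plasmacytoid genes Siglech and Grm8, or over 2 UMIs of the macrophage genes C1qa, C1qb and C1qc were left out. A nucleus was cDC1 when Xcr1 and Clec9a together exceeded Clec10a, Cd209a and Sirpa, and cDC2 when they were lower. This gave 137 cycling cDC1 and 149 cycling cDC2 at D0, 177 and 394 at D5, and 22 and 47 nuclei with equal counts, which were left out of comparisons between the subsets. Nuclei with 0 UMIs of the 5 cycle genes are called non-cycling below, and they numbered 1446 cDC1 and 2588 cDC2 at D0 and 2126 and 10595 at D5.

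The mice were C57BL/6J and received chow supplemented with 0.1% DDC (3,5-diethoxycarbonyl-1,4-dihydrocollidine, a porphyrinogenic agent that injures bile ducts) for 0 days (D0) or 5 days (D5). Nuclei came from living liver cells sorted as CD45+ CD64- CD11c+, a gate that takes leukocytes with the integrin CD11c and leaves out macrophages with the Fc receptor CD64. Each day is represented by 1 library, and how many animals went into it is not given in the sources used here. No difference between the days, or between pools of nuclei, could therefore be tested against a spread between animals. Intervals are 95% intervals that cover counting error only, and the diet cannot be told apart from the library. The D5 library was deeper, with a median of 2790 UMIs per called barcode against 1799 at D0, and 591 barcode sequences occurred in both libraries.

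Dividing cells copy their DNA in S phase and separate the copies in mitosis, and the transcripts of each step are made shortly before they are needed. Topoisomerase II alpha (Top2a) untangles the copied DNA, Ki-67 (Mki67) coats mitotic chromosomes, Knl1 and Cenpe belong to the kinetochore that holds chromosomes on the spindle, and the motor Kif11 pushes the spindle poles apart. Conventional dendritic cells carry antigen to T cells; cDC1 are specialised in cross-presentation to CD8+ T cells and cDC2 in priming of helper T cells. They are short-lived, are replaced by precursors from bone marrow under the growth factor Flt3L, and some of them divide after reaching the tissue.

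The promoters of the 5 cycle genes are shown because these genes chose the nuclei and because many genes of mitosis share short promoter elements. Each window runs from 250 bases before to 50 bases after the transcription start in the RefSeq annotation of build GRCm38.p6, printed 5′ to 3′ on the strand of the gene. Capitals mark CCAAT, the element bound by the factor NF-Y, and TTTGAA, the core of the cell cycle genes homology region (CHR), each on either strand (ATTGG and TTCAAA). The windows lie at chr11:99024140-99024439 (minus strand) for Top2a, chr7:135716330-135716629 (minus) for Mki67, chr2:119046869-119047168 (plus) for Knl1, chr19:37376132-37376431 (plus) for Kif11 and chr3:135212313-135212612 (plus) for Cenpe.
Top2a: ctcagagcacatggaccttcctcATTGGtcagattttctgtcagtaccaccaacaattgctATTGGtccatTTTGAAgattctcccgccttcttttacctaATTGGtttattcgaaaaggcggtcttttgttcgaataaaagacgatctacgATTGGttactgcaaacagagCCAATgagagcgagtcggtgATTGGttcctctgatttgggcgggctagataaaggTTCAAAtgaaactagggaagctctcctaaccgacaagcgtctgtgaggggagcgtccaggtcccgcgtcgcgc
Mki67: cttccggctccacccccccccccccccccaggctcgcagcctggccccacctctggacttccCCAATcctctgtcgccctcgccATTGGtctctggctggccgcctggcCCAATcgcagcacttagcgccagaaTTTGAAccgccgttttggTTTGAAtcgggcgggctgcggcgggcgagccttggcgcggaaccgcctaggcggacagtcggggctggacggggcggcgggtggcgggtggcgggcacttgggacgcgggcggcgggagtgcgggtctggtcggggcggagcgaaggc
Knl1: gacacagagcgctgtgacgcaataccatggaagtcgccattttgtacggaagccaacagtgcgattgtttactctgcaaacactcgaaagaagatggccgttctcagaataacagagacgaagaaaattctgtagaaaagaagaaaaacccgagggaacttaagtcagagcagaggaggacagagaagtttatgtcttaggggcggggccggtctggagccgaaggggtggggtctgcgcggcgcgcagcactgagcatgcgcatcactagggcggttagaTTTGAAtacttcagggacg
Kif11: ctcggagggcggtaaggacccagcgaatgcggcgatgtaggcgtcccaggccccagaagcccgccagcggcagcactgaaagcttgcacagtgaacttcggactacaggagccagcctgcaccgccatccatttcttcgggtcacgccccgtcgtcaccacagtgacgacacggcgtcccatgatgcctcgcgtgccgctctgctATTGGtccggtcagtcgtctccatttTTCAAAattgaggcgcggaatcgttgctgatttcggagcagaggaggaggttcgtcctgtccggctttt
Cenpe: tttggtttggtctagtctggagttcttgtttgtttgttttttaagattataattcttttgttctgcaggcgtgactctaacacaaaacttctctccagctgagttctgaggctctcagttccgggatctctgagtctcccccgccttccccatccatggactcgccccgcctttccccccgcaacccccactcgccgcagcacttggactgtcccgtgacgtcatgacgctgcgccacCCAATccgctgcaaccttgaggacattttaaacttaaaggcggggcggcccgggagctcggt

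The Top2a window holds 6 copies of CCAAT and 2 of TTTGAA, that of Mki67 holds 3 and 2, that of Kif11 holds 1 of each, that of Knl1 holds 1 TTTGAA alone and that of Cenpe holds 1 CCAAT alone. A list of 44 other genes of mitosis, which is used throughout, was searched in the same way, and 37 of its members (84.1%) had a promoter. CCAAT stood in 28 of these 37 windows (75.7%) against 37.9% of all 27025 promoters, TTTGAA in 29 (78.4%) against 18.1%, and both in 24 (64.9%) against 7.02%. The E2F element GGCGGGAA (TTCCCGCC on the other strand) stood in 1 of the 37 (2.70%) and in 2.27% of all promoters. It overlaps neither of the other elements in its letters. Of a list of 48 genes of DNA replication only 37 members (77.1%) had a promoter, below the 80% needed, so the same search is void for that list. These matches are a description of letters within the windows.

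Of the nuclei that reached 4 cycle UMIs, 764 at D0 and 923 at D5, the other limits of the rule took out different shares in the 2 libraries. At D0 the lymphoid limit removed 300 of 764 nuclei (39.3%) and the plasmacytoid limit 102 (13.4%). At D5 they removed 106 of 923 (11.5%) and 87 (9.43%), and the members were 40.3% of these nuclei at D0 and 67.0% at D5. The cDC part of the rule was met by 5418 of all 14282 nuclei at D0 and 16452 of all 26633 at D5. A smaller loss at D5 was thus not particular to nuclei with cycle UMIs. Around the threshold, 57 cDC nuclei at D0 and 149 at D5 held 3 cycle UMIs and stayed outside, and 48 and 98 held exactly 4 and were included. Cycling nuclei were the deeper ones. The median was 3751 UMIs in cycling against 2103 in non-cycling cDC1 at D0 and 4910 against 3063 at D5. In cDC2 it was 3756 against 1857 at D0 and 5678 against 2767 at D5.

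The subset call rested on 1 lineage UMI in 32 of 137 cycling cDC1 at D0 (23.4%) and 55 of 177 at D5 (31.1%). In cycling cDC2 it did so in 26 of 149 (17.4%) and 69 of 394 (17.5%). For non-cycling nuclei these shares were 34.7% and 33.2% in cDC1 and 32.5% and 24.6% in cDC2. The subset labels were checked against 18 further identity genes of each subset that the rule does not use, by the share of nuclei with more UMIs of one list than of the other. Of the cycling cDC1, 134 of 137 at D0 (97.8%, 93.7 to 99.5) and 172 of 177 at D5 (97.2%, 93.5 to 99.1) held more cDC1 than cDC2 identity UMIs. By this comparison the cDC2 label was less well borne out. More cDC2 identity UMIs were found in 91 of 149 cycling cDC2 at D0 (61.1%, 52.8 to 68.9) and in 219 of 394 at D5 (55.6%, 50.5 to 60.6), while 36.2% and 41.6% held more cDC1 identity UMIs. In non-cycling cDC2 that last share was 26.0% at D0 and 25.4% at D5. Abundant members of the cDC1 list were not confined to cDC1, since at D0 Id2 was at 1245 CPM (counts scaled to the pool, below) in non-cycling cDC1 and 672 CPM in non-cycling cDC2, and Wdfy4 at 2086 and 702 CPM. Lymphoid nuclei without a lineage UMI and without a cycle UMI, thinned to equal depth, held means of 6.02 cDC1 and 2.98 cDC2 identity UMIs at D0. At D5 they held 4.83 and 2.35. The comparison thus leans to cDC1 outside the cDC as well, and a majority for cDC1 alone is weak support for the label. At the same depth cycling cDC1 held means of 15.4 and 2.89 at D0 and 14.6 and 2.53 at D5. Cycling cDC2 held 5.60 and 7.04 at D0 and 5.19 and 5.24 at D5. A simulated-doublet score of 0.2 or more was reached by 9.49% of cycling and 8.64% of non-cycling cDC1 at D0, and by 16.4% and 14.2% at D5. In cDC2 it was reached by 23.5% of cycling and 9.81% of non-cycling nuclei at D0 and by 42.6% and 19.7% at D5. At least 2 UMIs of both lineages at once were held by 12.1% of cycling and 2.43% of non-cycling cDC2 at D0, and by 10.2% and 2.77% at D5. The part of doublets in the results below was not tested beyond the values without high-scoring nuclei in the closing section.

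A smaller share of cDC nuclei was cycling at D5 than at D0. Of all nuclei that met the cDC part of the rule, 308 of 5418 were cycling at D0 (5.68%, 5.08 to 6.33) and 618 of 16452 at D5 (3.76%, 3.47 to 4.06), a difference of -1.93 percentage points (-2.63 to -1.27). Among cDC1 the share was 7.31% (6.17 to 8.58) at D0 and 6.42% (5.53 to 7.40) at D5, and the interval of this difference, -0.893 points, included 0 (-2.42 to 0.573). Among cDC2 it was 4.59% (3.89 to 5.37) and 3.03% (2.74 to 3.34), a difference of -1.56 points (-2.38 to -0.821). In each library cDC1 held the larger cycling share, by 2.72 points (1.38 to 4.15) at D0 and 3.39 points (2.48 to 4.40) at D5. A threshold in UMIs is easier to reach in a deeper library, so nuclei of 2000 or more UMIs were also thinned to exactly 2000 and the whole rule was applied again. The shares were then 5.72% at D0 and 1.75% at D5 for all cDC, 6.38% and 2.73% for cDC1, and 5.33% and 1.49% for cDC2, and the intervals of the 2 days did not overlap in either subset. Taking the nuclei of 2000 or more UMIs changes the shares by itself, since it kept 2859 of 5418 cDC nuclei at D0 and 14569 of 16452 at D5. Without thinning these nuclei gave 10.3% at D0 and 4.23% at D5 for all cDC, 11.3% and 6.87% for cDC1, and 9.38% and 3.44% for cDC2, a choice made after seeing the data. The excess of cDC1 over cDC2 in the thinned nuclei was 1.05 points at D0, with an interval that included 0 (-0.590 to 2.76), and 1.24 points at D5 (0.609 to 1.99). Without thinning it was 1.94 points (-0.369 to 4.32) at D0 and 3.43 points (2.45 to 4.52) at D5. At 1000 UMIs per nucleus few nuclei reached the threshold, 59 of 5455 at D0 (1.08%) and 55 of 12683 at D5 (0.434%). Against all nuclei of a library, in contrast, cycling cDC were 2.16% at D0 and 2.32% at D5, a difference of 0.164 points whose interval included 0 (-0.142 to 0.457). Among nuclei of 2000 or more UMIs they were 4.19% and 2.88% without thinning and 2.75% and 1.15% at 2000 UMIs per nucleus. With all nuclei thinned to 1000 UMIs they were 0.413% and 0.207%, a difference of -0.207 points (-0.335 to -0.095). The direction of this share thus depended on which nuclei were kept and on thinning.

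**Figure D1:**
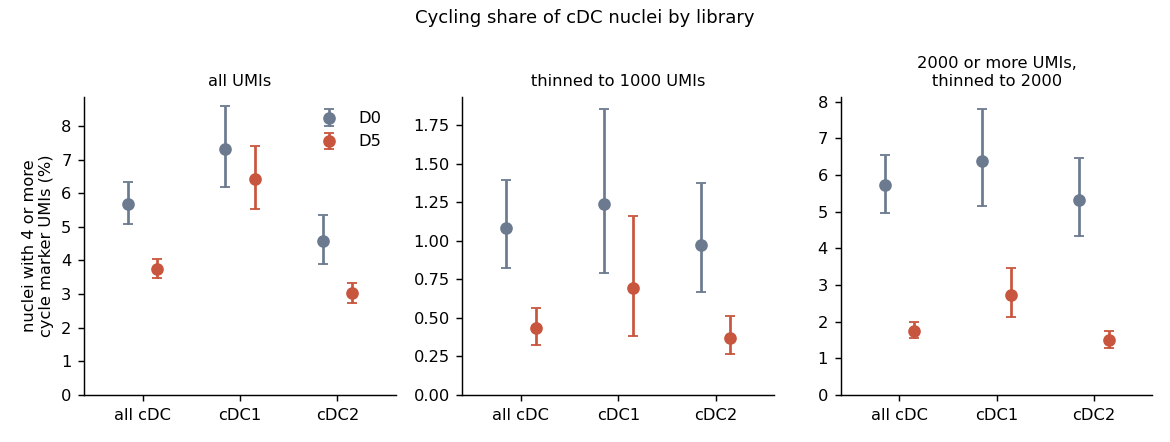
Share of cDC, cDC1 and cDC2 nuclei with 4 or more cycle marker UMIs (y axis, percent, a separate scale in each panel) at D0 (grey) and D5 (red), with exact 95% binomial intervals for counting error. With all UMIs the cDC shares are 5.68% and 3.76%, and with nuclei thinned to 2000 UMIs they are 5.72% and 1.75%.

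The subset makeup of the cycling nuclei differed between the days in the direction of the non-cycling nuclei. Leaving out ties, cDC2 were 149 of 286 cycling nuclei at D0 (52.1%, 46.1 to 58.0) and 394 of 571 at D5 (69.0%, 65.0 to 72.8), a difference of 16.9 points (9.97 to 23.7). In non-cycling nuclei they were 64.2% at D0 and 83.3% at D5, a difference of 19.1 points (17.5 to 20.8). Within each library the cDC2 share was lower in cycling than in non-cycling nuclei, with a difference of -12.1 points (-18 to -6.14) at D0 and -14.3 points (-18.2 to -10.6) at D5. At 2000 UMIs per nucleus the D5 value was -11.1 points (-17.3 to -5.60), and that of D0 was -4.66 points, with an interval that included 0 (-12.1 to 2.75).

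Levels of genes are given as CPM, the UMIs of a gene in a pool of nuclei scaled so that the pool sums to 1000000, and ratios as log2 with exact 95% counting intervals. Genes with 20 or more UMIs in a pair of pools were compared, and a gene past a log2 ratio of 1 in size is called 2-fold apart. Such a call is a size and not a test. CPM values are set side by side for 1 gene across pools and never between genes, since gene length was not corrected. TMM factors, another scaling, would shift the ratios of cycling cDC1 over cDC2 by -0.09 at D0 and -0.07 at D5, and those of cycling over non-cycling nuclei by -0.11 to -0.08. Genes with near-identical relatives, here Cd209a, Clec4a3, Klra7, Ifitm1, Ifitm2, H2-Q6, H2-T22, Hspa1a and Hspa1b, are uncertain where the counting could split or drop their reads.

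Each of the 5 cycle genes that chose the nuclei differed by less than 2-fold between cycling cDC1 and cycling cDC2. Top2a was at 1045 and 994 CPM at D0 and 866 and 755 CPM at D5 in cycling cDC1 and cDC2. Mki67 was at 642 and 559 CPM at D0 and 626 and 461 CPM at D5, Knl1 at 279.7 and 205 CPM at D0 and 254 and 217 CPM at D5, Kif11 at 276 and 237 CPM at D0 and 184 and 191 CPM at D5 and Cenpe at 233 and 147 CPM at D0 and 187 and 139.9 CPM at D5. The log2 ratios of cDC1 over cDC2 ran from 0.07 for Top2a to 0.67 for Cenpe at D0 and from -0.06 for Kif11 to 0.44 for Mki67 at D5. Over all genes the median was 0.07 at D0 and 0.03 at D5, and 5.14% of 7495 genes were 2-fold higher and 5.4% 2-fold lower in cycling cDC1 at D0, against 3.14% and 6.77% of 9554 genes at D5.

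Genes of the cycle that the rule did not use were as close. They were read in nuclei that passed the same cycle threshold in both subsets, so this too follows in part from the rule and is a description. Across the mitosis list (cyclins, kinesins, kinetochore and condensin subunits), 0 of 43 measured members at D0 and 0 of 44 at D5 were 2-fold apart between cycling cDC1 and cDC2, with median log2 ratios of 0.10 and 0.14. Over all genes 5.14% were higher and 5.4% lower in cycling cDC1 at D0, and 3.14% and 6.77% at D5. Cyclin B1 (Ccnb1), the cyclin of mitotic entry, differed by 0.16 (-0.76 to 1.09) at D0 and -0.52 (-1.31 to 0.20) at D5. Cyclin A2 (Ccna2), which acts in S and G2 phase, differed by 0.90 (0.33 to 1.49) and 0.18 (-0.25 to 0.60), and the mitotic kinase Cdk1 by 0.38 (-0.07 to 0.83) and 0.48 (0.15 to 0.81). The replication list (helicase, polymerase, clamp and nucleotide synthesis genes) had medians of 0.21 at D0 and 0.30 at D5, and 33 of 45 and 40 of 48 members lay above 0. In each library 1 member was 2-fold higher, against 5.14% of all genes at D0 and 3.14% at D5. It was Dtl (an adaptor of the ubiquitin ligase that limits relicensing) at 1.04 (0.51 to 1.58) at D0 and the uracil glycosylase Ung at 1.03 (-0.32 to 2.33) at D5. The helicase gene Mcm6 was higher in cycling cDC1 by 0.75 (0.32 to 1.18) at D0 and 0.52 (0.24 to 0.80) at D5, and the chromatin remodeller Hells by 0.73 (0.17 to 1.30) and 0.65 (0.32 to 0.97).

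Against non-cycling nuclei of the same subset the cycle lists were far higher, which follows in part from the rule and is given as a description. Mitosis genes were higher 2-fold or more in 43 of 43 members in cDC1 at D0 and at D5, 43 of 43 in cDC2 at D0 and 44 of 44 at D5, with median log2 ratios of 4.53, 4.93, 4.81 and 4.97. Replication genes were higher in 42 of 44, 48 of 48, 45 of 45 and 47 of 48, with lower medians of 2.57, 2.85, 2.33 and 2.70. Over all genes, 7.37% were 2-fold higher and 7.69% lower in cDC1 at D0, 7.15% and 6.61% in cDC1 at D5, 7.12% and 8.17% in cDC2 at D0, and 7.12% and 6.41% in cDC2 at D5. The summed level of the mitosis list was 5584 CPM in cycling against 427 CPM in non-cycling cDC1 at D0 and 4349 against 293 CPM at D5. In cDC2 it was 5031 against 391 CPM at D0 and 3841 against 268 CPM at D5. The replication list was at 965 and 875 CPM at D0 and 759 and 664 CPM at D5 in non-cycling cDC1 and cDC2. In nuclei thinned to equal depth, its mean at D0 was 1.97 UMIs in non-cycling cDC1 and 1.89 in non-cycling cDC2. In lymphoid nuclei without a lineage UMI it was 1.96. At D5 these means were 1.47, 1.29 and 2.33. The level in non-cycling cDC was thus close to that of these lymphoid nuclei at D0 and below it at D5. The lymphoid nuclei were chosen without a cycle UMI, as the non-cycling cDC were. The comparison thus does not cover all nuclei outside the cDC and is a description.

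Outside the rule, the genes with the highest ratio in all 4 contrasts of cycling over non-cycling nuclei were Neil3, Esco2, Depdc1a, Kif4, Iqgap3, Kif14, Shcbp1, Hmmr, Cit and Nusap1. The DNA glycosylase Neil3 reached 149.8 and 180.4 CPM at D0 and 89.6 and 95.8 CPM at D5 in cycling cDC1 and cDC2, with 2, 5, 6 and 14 UMIs in the 4 non-cycling pools. At D0 the Neil3 UMIs came from 53 cycling cDC1 and 66 cycling cDC2. Nusap1, which bundles spindle microtubules, was at 168 and 172 CPM at D0 and 168 and 159 CPM at D5, and its ratios to non-cycling nuclei were 5.45, 5.81, 5.77 and 5.65 in cDC1 at D0 and D5 and cDC2 at D0 and D5. The chromokinesin Kif4 was at 144 and 149.8 CPM at D0 and 109 and 83.0 CPM at D5, and Esco2, which acetylates cohesin during replication, at 93.8 and 83.7 CPM at D0 and 68.8 and 83.4 CPM at D5. None of these 10 genes was 2-fold apart between cycling cDC1 and cDC2, with ratios from -0.27 (Neil3) to 0.50 (Depdc1a) at D0 and from -0.48 (Iqgap3) to 0.40 (Kif4) at D5. Over all genes 5.14% were higher and 5.4% lower in that contrast at D0, and 3.14% and 6.77% at D5.

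Replication and mitosis transcripts were also counted per nucleus after thinning to 2000 UMIs, which left 131 cycling cDC1 and 144 cycling cDC2 at D0 and 177 and 392 at D5. The median nucleus held 8 replication and 10 mitosis UMIs in cDC1 at D0, 7 and 10.5 in cDC2 at D0, 9 and 9 in cDC1 at D5 and 7 and 8 in cDC2 at D5. In non-cycling nuclei the medians were 1 for replication and 0 or 1 for mitosis. More replication than mitosis UMIs were held by 51 of 131 cycling cDC1 at D0 (38.9%, 30.5 to 47.8) and 90 of 177 at D5 (50.8%, 43.2 to 58.4). In cycling cDC2 this share was 54 of 144 at D0 (37.5%, 29.6 to 45.9) and 180 of 392 at D5 (45.9%, 40.9 to 51.0). The intervals of the 2 days overlapped in each subset, which does not show that the shares are equal, and no interval of the difference was computed. The nuclei were chosen before thinning in libraries of unlike depth, and the part of this was not tested. No phase was assigned to single nuclei from these counts.

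**Figure D2:**
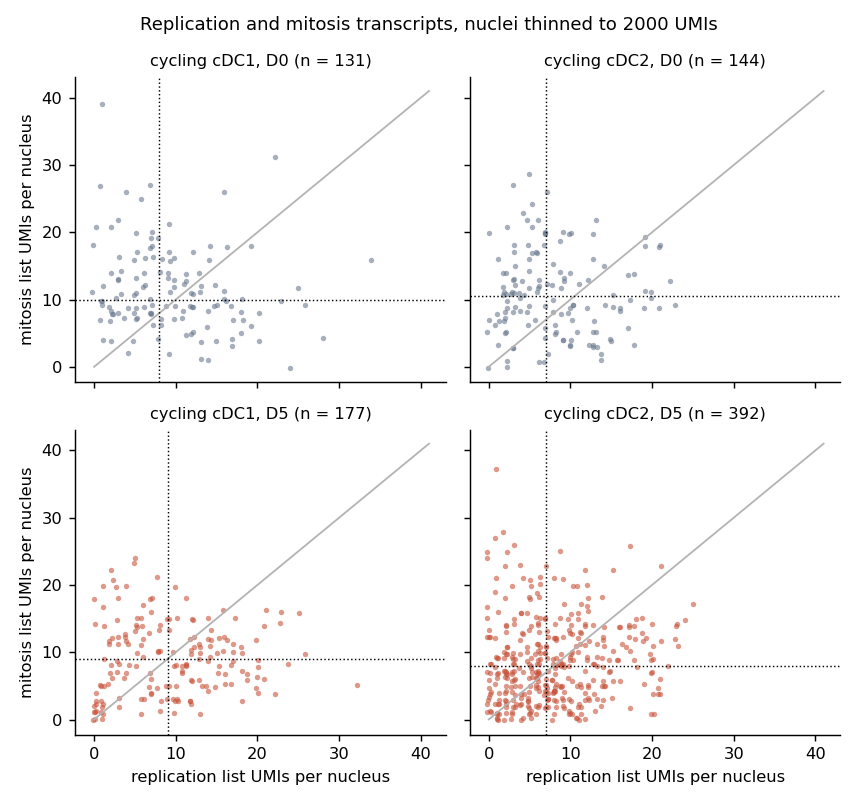
UMIs of the replication list (x axis) and of the mitosis list (y axis) in each cycling nucleus thinned to 2000 UMIs, with small random shifts to separate points, a grey line of equality and dotted lines at the medians. The nuclei spread from the mitosis side to the replication side in all 4 pools, with medians between 7 and 9 for replication and between 8 and 10.5 for mitosis.

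Among 23 regulators of the cycle, 13 of 21 measured were 2-fold higher in cycling than in non-cycling cDC1 at D0 and at D5, and 14 of 22 in cDC2 at each day, against 7.12% to 7.37% of all genes. The nuclei were split by cycle genes, so these counts too follow in part from the rule and are a description. The members below are examples picked after their values were seen. E2f8, a repressor of the E2F family made in S phase, was at 63.2 against 5.61 CPM in cDC1 and 51.5 against 5.76 CPM in cDC2 at D0. At D5 E2f8 was at 60.1 against 4.92 and 57.0 against 5.00 CPM. Foxm1, an activator of mitotic genes, was at 52.3 and 45.1 CPM at D0 and 33.9 and 31.4 CPM at D5 in cycling cDC1 and cDC2, and its 4 non-cycling pools held 4 to 23 UMIs. The ratios of Mybl2 (B-MYB) were 3.61, 4.75, 3.83 and 4.38, in the order cDC1 at D0 and D5 and cDC2 at D0 and D5, and those of Fbxo5, the inhibitor of the anaphase-promoting complex, were 4.58, 4.88, 3.73 and 4.47. Cyclin D1 (Ccnd1), which couples growth signals to the cycle, had ratios of -0.06, -0.06, -0.56 and -0.04, cyclin D3 (Ccnd3) of 0.00, -0.25, -0.14 and -0.07, and Cdk6, their kinase partner, of 0.26, -0.04, 0.30 and 0.25. Cyclin D2 (Ccnd2) was lower in cycling cDC2, at -0.68 (-0.94 to -0.44) at D0 and -0.56 (-0.70 to -0.43) at D5. Mycl, the MYC paralogue of cDC1, was at 55.9 and 53.5 CPM in cycling and 55.2 and 53.4 CPM in non-cycling cDC1 at D0 and D5.

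Of 20 genes that restrain the cycle, 2 of 16 measured were 2-fold higher in cycling than in non-cycling cDC1 at D0, 1 of 17 at D5, 1 of 17 in cDC2 at D0 and 2 of 19 at D5. Over all genes these shares were 7.37%, 7.15%, 7.12% and 7.12%, so the counts of this list were near the background. The inhibitor of cyclin D kinases Cdkn2c (p18) was at 41.5 and 46.7 CPM at D0 and 21.9 and 28.9 CPM at D5 in cycling cDC1 and cDC2 and at 13.0, 13.4, 9.02 and 9.47 CPM in the matching non-cycling pools. Cdkn2d (p19), of the same family, was higher by 1.05 (0.53 to 1.54) and 0.93 (0.62 to 1.24) in cDC1 at D0 and D5 and by 0.64 (0.29 to 0.96) and 0.48 (0.34 to 0.61) in cDC2. The p53 target Cdkn1a (p21) was not lower in cycling nuclei, with ratios of 0.35, 0.60, 0.26 and 0.16. Between the subsets Cdkn1a differed, at 146 CPM in cycling cDC1 against 506 in cycling cDC2 at D0 and 175 against 469.7 CPM at D5. The antiproliferative gene Btg1 was lower in all 4 cycling pools, at -0.60 and -0.59 in cDC1 and -0.47 and -0.34 in cDC2.

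Cycling nuclei of the 2 subsets kept different identity transcripts. Of the 18 cDC1 identity genes, 13 at D0 and 16 at D5 were 2-fold higher in cycling cDC1 than in cycling cDC2, none was 2-fold lower, and the medians were 1.44 and 1.78. Over all genes 5.14% and 3.14% were higher. Of the cDC2 identity genes, 12 of 17 at D0 and 13 of 17 at D5 were 2-fold lower in cycling cDC1, against 5.4% and 6.77% of all genes, with medians of -1.82 and -1.94. In non-cycling nuclei the medians of the same contrast were 2.30 and 2.46 for the cDC1 list and -1.92 and -1.68 for the cDC2 list. The rule's own lineage genes, given as a description, showed the split they were chosen for. Xcr1, the chemokine receptor of cDC1, was at 229 and 40.3 CPM at D0 and 167 and 29.3 CPM at D5 in cycling cDC1 and cDC2, and the lectin receptor Clec9a at 444 and 75.7 CPM at D0 and 323 and 38.0 CPM at D5. Among the cDC2 genes, the lectin Clec10a was at 19.9 and 209 CPM at D0 and 25.1 and 232 CPM at D5, Cd209a (DC-SIGN family) at 39.7 and 494 CPM at D0 and 27.3 and 380.2 CPM at D5 and the inhibitory receptor Sirpa at 30.7 and 282 CPM at D0 and 16.4 and 208 CPM at D5.

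Irf8, the transcription factor that cDC1 need to form, was at 1314 and 415 CPM at D0 and 1233 and 349 CPM at D5 in cycling cDC1 and cDC2, a ratio of 1.66 (1.45 to 1.87) at D0 and 1.82 (1.69 to 1.95) at D5. The adhesion molecule Cadm1 differed by 1.36 (1.07 to 1.65) and 1.61 (1.40 to 1.81), and the double-stranded RNA receptor Tlr3 by 1.75 (1.22 to 2.30) and 1.94 (1.54 to 2.36). Batf3, also required for cDC1, was less apart, at 168 and 98.2 CPM at D0 and 178 and 94.5 CPM at D5, or 0.77 (0.29 to 1.26) at D0 and 0.91 (0.62 to 1.21) at D5. On the cDC2 side the transcription factor Irf4 was at 21.7 and 99.8 CPM at D0 and 13.1 and 57.4 CPM at D5 in cycling cDC1 and cDC2, a ratio of -2.20 (-3.23 to -1.30) and -2.13 (-3.12 to -1.28). Zeb2, a repressor in cDC2 development, was at 143 and 567 CPM at D0 and 87.4 and 368 CPM at D5, or -1.99 (-2.36 to -1.64) and -2.07 (-2.42 to -1.74). The integrin Itgam (CD11b) differed by -3.07 (-4.44 to -1.95) and -2.11 (-2.87 to -1.43), and the M-CSF receptor Csf1r by -1.03 (-1.74 to -0.36) and -1.94 (-2.56 to -1.38). The chemokine receptor Ccr2, which stands in the cDC2 list, was at 409.7 and 380.0 CPM at D0 and 451 and 456 CPM at D5 in cycling cDC1 and cDC2, or 0.11 (-0.16 to 0.38) and -0.02 (-0.18 to 0.15).

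Outside the lineage genes of the rule, the 10 genes with the highest ratio of cycling cDC1 over cDC2 in both libraries included Pdia5, Fgd6, Cd36, Rab7b, Nrg2, Tanc1, Itga8, Gcsam and P3h2. Rab7b, a GTPase of late endosomes, was at 365 and 95 CPM at D0 and 392 and 85.9 CPM at D5 in cycling cDC1 and cDC2, and the scavenger receptor Cd36 at 152 and 37.0 CPM at D0 and 105 and 26.8 CPM at D5. Their ratios were 1.94 and 2.03 at D0 and 2.19 and 1.97 at D5. The integrin gene Itga8 had the highest ratio of the 10 at D5, 2.46 (1.76 to 3.19), on 54 and 26 UMIs, and Nrg2, a neuregulin, at D0, 2.62 (1.52 to 3.92), on 44 and 8 UMIs.

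The 10 genes at the other end were Abca9, Mmp12, Mgl2, Cd101, Capg, Tnip3, Clec4a3, Creb5, Cd33 and Tnf. The lectin Mgl2 (CD301b), a marker of a cDC2 subgroup, was at 14.4 and 151 CPM at D0 and 8.74 and 69.8 CPM at D5 in cycling cDC1 and cDC2, a ratio of -3.39 (-4.64 to -2.35) at D0 and -3.00 (-4.23 to -1.98) at D5. Tnip3, an inhibitor of NF-κB signalling, was at 72.2 and 768 CPM at D0 and 82.0 and 448 CPM at D5. The lipid transporter Abca9 had 0 and 1 UMIs in cycling cDC1 against 32 and 70 in cycling cDC2 at D0 and D5. The macrophage elastase Mmp12 had 1 and 0 against 21 and 29 UMIs. For pools at 0 UMIs no ratio is given, since up to 3 UMIs cannot be told from 0 at this depth. Tnf, which encodes the cytokine TNF, was at 12.6 and 67.6 CPM at D0 and 8.74 and 38.4 CPM at D5.

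**Figure D3:**
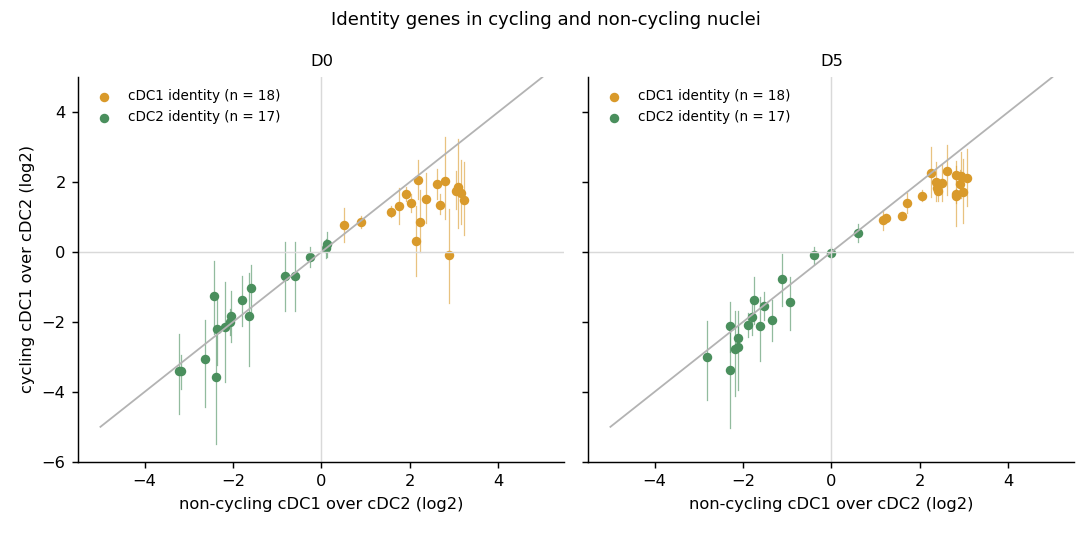
Log2 ratio of cDC1 over cDC2 for identity genes the rule did not use, in non-cycling nuclei (x axis) and in cycling nuclei (y axis, with 95% counting intervals), at D0 and D5. Genes of the cDC2 list (green) lie near the grey line of equality, and genes of the cDC1 list (orange) mostly lie below it, with cycling medians of 1.44 and 1.78 against 2.30 and 2.46 in non-cycling nuclei.

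Genes chosen in one set of nuclei were also measured in another. In non-cycling nuclei at D0, 416 genes were 2-fold higher in cDC1 and 504 in cDC2 (with 50 or more UMIs). In cycling nuclei at D5, a separate library, 345 of the cDC1 genes could be measured, of which 317 (91.9%) lay in the same direction and 140 (40.6%) were 2-fold apart, with a median of 0.88. Over all genes 3.14% were 2-fold higher and 6.77% lower in this contrast. Of the cDC2 genes 400 could be measured, 386 (96.5%) lay in the same direction and 254 (63.5%) were 2-fold apart, with a median of -1.25. A gene was measured when the UMIs of both pools together reached the minimum for a comparison. The cycling cDC2 pool of D5 was the larger one, with 2422625 UMIs against 915073 in cycling cDC1. The cDC2 genes could thus pass through the pool in which they are high, and their shares are a description. In non-cycling nuclei at D5 the shares past 2-fold were 61.5% of 416 for the cDC1 genes and 68.6% of 503 for the cDC2 genes.

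The smaller distance of the cDC1 list in cycling nuclei came with ratios above 0 for most of these genes in cycling over non-cycling cDC2. Of the 18, 17 lay above 0 at D0 (median 0.53) and 16 at D5 (median 0.62), against 5582 of 11193 and 7351 of 13720 of all genes. The number 2-fold higher was 4 at D0 and 0 at D5, against 7.12% of all genes at each day. In cDC1 the medians of cycling over non-cycling nuclei were -0.14 at D0 and 0.04 at D5, and the latter turns to -0.04 with TMM factors. Irf8 was at 415 CPM in cycling and 354 in non-cycling cDC2 at D0 and at 349 and 219.9 CPM at D5. Naaa, an acid amidase of cDC1, was higher in cycling cDC2 by 0.80 (0.57 to 1.02) at D0 and 0.61 (0.47 to 0.73) at D5 on the log2 scale. Tlr3 was higher in cycling cDC2 by 1.11 (0.58 to 1.62) at D0 and 0.84 (0.50 to 1.16) at D5. At 2000 UMIs per nucleus, Cadm1 was found in 22.2% of cycling and 19.7% of non-cycling cDC2 at D0 and in 17.3% and 12.0% at D5. Lymphoid nuclei, which should lack Cadm1 and held no lineage UMI, had it in 12.8% of 133 at D0 and 5.88% of 187 at D5, thinned to the same depth. Irf8 was found in 66.9% and 37.4% of the lymphoid nuclei and in 38.2% and 31.6% of cycling cDC2. Its share in cycling cDC2 thus did not exceed that of the lymphoid nuclei. Whether lymphoid nuclei express Irf8 or other genes of the cDC1 list themselves was not tested. Over the whole cDC1 list, the mean at 2000 UMIs was 5.60 UMIs in cycling cDC2, 5.02 in non-cycling cDC2 and 6.02 in lymphoid nuclei at D0. At D5 these means were 5.19, 4.05 and 4.83. At D0 the list in cycling cDC2 thus did not exceed its level in the lymphoid nuclei, and at D5 it was above that level. High doublet scores and UMIs of both lineages were more frequent in the cycling cDC2 pools (above), and their part was not tested.

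Genes common to both subsets differed little between cycling and non-cycling nuclei. Over 14 shared transcription factors and growth factor receptors the medians were -0.31 and -0.20 in cDC1 at D0 and D5 and -0.27 and -0.09 in cDC2. Flt3, the receptor of the cDC growth factor, was at 291 and 195 CPM at D0 and 325 and 269 CPM at D5 in cycling cDC1 and cDC2 and at 356, 197, 365 and 291 CPM in the matching non-cycling pools. The receptor Kit had ratios to non-cycling nuclei of 0.03, 0.13, 0.43 and -0.07. Csf2ra, the alpha chain of the GM-CSF receptor, was lower in all 4 cycling pools, at -0.36 and -0.43 in cDC1 and -0.42 and -0.21 in cDC2. The cDC transcription factor Zbtb46 was lower in cycling cDC1, at -0.63 (-1.04 to -0.25) at D0 and -0.46 (-0.81 to -0.13) at D5, and near equal in cDC2, at 0.00 and -0.09.

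A list of 14 precursor genes held members in both directions. Its medians in cycling over non-cycling nuclei were -0.76 and -0.34 in cDC1 at D0 and D5 and -0.30 and -0.21 in cDC2. The members that were 2-fold higher in every contrast, Psat1 and Phgdh, are enzymes of serine synthesis. Psat1 was at 27.1 and 19.3 CPM at D0 and 37.2 and 22.7 CPM at D5 in cycling cDC1 and cDC2, against 10.6, 9.11, 12.8 and 9.50 CPM in non-cycling nuclei. Phgdh had ratios of 1.79 (0.95 to 2.6) and 1.79 (1.07 to 2.48) in cDC1 and 1.03 (-0.29 to 2.17) and 1.56 (0.96 to 2.13) in cDC2. The stem cell antigen Cd34 was higher by 0.46 (-0.20 to 1.07) and 0.47 (0.02 to 0.90) in cDC1 and 0.46 (-0.17 to 1.04) and 0.80 (0.51 to 1.07) in cDC2. The monocyte and precursor gene Ly6c2 was lower, at -0.66 (-1.42 to 0.03) and -1.33 (-2.06 to -0.69) in cDC1 and -1.64 (-2.46 to -0.92) and -0.64 (-0.97 to -0.32) in cDC2. The granulocyte and monocyte progenitor gene Ms4a3 was at 0 UMIs in all 8 pools, and Mpo (myeloperoxidase) had at most 3 UMIs in any cycling pool.

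The pooled levels of maturation genes were lower in cycling than in non-cycling nuclei. Of 18 genes of mature dendritic cells, 12 of 17 measured were 2-fold lower in cycling than in non-cycling cDC1 at D0 and 6 of 17 at D5, and in cDC2 6 of 18 at D0 and 1 of 18 at D5. Over all genes 7.69% and 6.61% were lower in cDC1 and 8.17% and 6.41% in cDC2, so the count of cDC2 at D5 was near the background. No measured member lay above 0 in any of the 4 contrasts. This contrast shares its nuclei with the rule and is a description. Ccr7, the chemokine receptor that guides mature dendritic cells to lymph nodes, was at 21.7 and 142 CPM at D0 and 101 and 97.8 CPM at D5 in cycling cDC1 and cDC2, against 120.2, 199, 166 and 188 CPM in non-cycling nuclei. The actin bundler Fscn1 was lower in cycling nuclei, at -2.08 (-3.72 to -0.82) and -0.77 (-1.49 to -0.13) in cDC1 and -2.13 (-3.36 to -1.14) and -0.84 (-1.22 to -0.48) in cDC2 at D0 and D5. Il12b, the p40 subunit of interleukin 12, was lower, at -2.35 (-3.20 to -1.62) and -1.57 (-2.18 to -1.02) in cDC1. The costimulatory gene Cd86 was less low, at -0.60 and -0.35 in cDC1 and -0.56 and -0.34 in cDC2. Between the subsets, 10 of 13 maturation genes at D0 and 5 of 16 at D5 were 2-fold lower in cycling cDC1 than in cycling cDC2, against 5.4% and 6.77% of all genes.

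The study is concerned with signals from cDC2 to γδ T cells, so a panel of 11 ligands and adhesion genes was followed in the cycling nuclei. Of the 10 that could be measured, 7 at D0 and 2 at D5 were 2-fold lower in cycling cDC1 than in cycling cDC2, against 5.4% and 6.77% of all genes, with medians of -1.47 and -0.83. The cytokine gene Il1b was at 455 and 2042 CPM at D0 and 694 and 1313 CPM at D5 in cycling cDC1 and cDC2, the chemokine Ccl17 at 18 and 59.6 CPM at D0 and 19.7 and 63.2 CPM at D5 (with 15 of 37 and 32 of 153 cDC2 UMIs in 1 nucleus at D0 and D5) and the adhesion molecule Icam1 at 79.4 and 190.0 CPM at D0 and 52.5 and 91.2 CPM at D5. In nuclei thinned to equal depth, Il1b was found in 42.0% and 54.8% of cycling cDC1 at D0 and D5. In cycling cDC2 these shares were 73.6% and 68.6%, and in the lymphoid nuclei above 42.1% and 43.9%. The share of cycling cDC1 at D0 thus did not exceed that of nuclei outside the cDC. Il18 lay in favour of cDC1, with 1.46 (0.40 to 2.62) at D0 and 0.65 (-0.25 to 1.52) at D5, and Lgals9 (galectin-9) was at -0.67 (-1.59 to 0.21) and 0.11 (-0.46 to 0.66). Against non-cycling cDC2 the panel differed little, with medians of -0.09 at D0 and -0.27 at D5, and Il1b by -0.09 (-0.18 to -0.01) and -0.64 (-0.69 to -0.59). Il23a held 3 UMIs in cycling cDC2 at D5 and 1 in cycling cDC1, and 0 at D0.

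Of 19 genes of antigen presentation none was 2-fold apart between cycling and non-cycling nuclei in any of the 4 contrasts, with medians from -0.26 to -0.19. Over all genes 7.12% to 7.37% were higher and 6.41% to 8.17% lower, so few members of a list of this size would be called in any case. The invariant chain Cd74 was at 10494 and 15696 CPM at D0 and 11720.0 and 15960.0 CPM at D5 in cycling cDC1 and cDC2, and its ratios to non-cycling nuclei were -0.19, -0.27, -0.20 and -0.27. H2-DMb2, a subunit of the peptide editor of MHC class II, was the member 2-fold apart between the subsets, at -1.36 (-1.96 to -0.80) at D0 and -1.26 (-1.62 to -0.93) at D5, lower in cycling cDC1. The lowest ratios of cycling over non-cycling nuclei across all 4 contrasts belonged to Hmox1, Cmah, Il1rn, Apoe, Ace, Klra7, Ldlrad3, Flt1, Mctp2 and Peli2. Apolipoprotein E (Apoe) was at 27.1 and 78.9 CPM at D0 and 26.2 and 63.6 CPM at D5 in cycling cDC1 and cDC2, against 85.9, 225, 80.8 and 168 CPM in non-cycling nuclei. The interleukin 1 receptor antagonist Il1rn had 2, 4, 1 and 7 UMIs in the 4 cycling pools, against 10.0, 24.2, 3.69 and 8.30 CPM in the non-cycling ones. Ace, which encodes the angiotensin-converting enzyme, stands in the monocyte and neutrophil list. Hmox1, heme oxygenase 1, also stands in the macrophage marker list, whose summed level was 76.5, 125, 46.3 and 77.3 CPM in the non-cycling pools and lower in the cycling ones (below).

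Between the days, cycling nuclei of both subsets had higher levels of Ifitm1, Ifitm2, Wfdc17, S100a4 and Fth1 and lower levels of Hspa1b, Hspa1a and Hsph1 at D5. These are single genes named by size, and no list of interferon-inducible or heat shock genes was measured. Over all genes the median log2 ratio of D5 over D0 was -0.14 in cycling cDC1 and -0.10 in cycling cDC2. In cycling cDC1, 1.81% of 7799 genes were 2-fold higher and 5.55% lower at D5, and in cycling cDC2 3.25% of 9480 genes were higher and 5.22% lower. This split depends on the scaling, since with TMM factors the counts were 286 higher and 260 lower in place of 141 and 433 in cDC1, and 485 and 305 in place of 308 and 495 in cDC2. TMM factors move the ratios by 0.21 in cDC1 and 0.19 in cDC2.

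Ifitm1, an interferon-induced transmembrane protein that restricts viruses, was at 27.1 and 27.4 CPM at D0 and 189 and 411 CPM at D5 in cycling cDC1 and cDC2. This was 2.80 (2.04 to 3.67) in cDC1 and 3.91 (3.22 to 4.69) in cDC2 on the log2 scale, and non-cycling nuclei showed 3.76 and 3.96. These UMIs came from 11 and 92 cycling cDC1 and from 15 and 285 cycling cDC2 at D0 and D5. Its relative Ifitm2 was higher by 1.26 (0.99 to 1.54) and 0.86 (0.69 to 1.03). Wfdc17, a secreted protease inhibitor of myeloid cells, was at 41.5 and 134 CPM at D0 and 173 and 244 CPM at D5, or 2.06 (1.42 to 2.76) and 0.87 (0.54 to 1.22). The calcium-binding protein S100a4 was at 357 and 1366 CPM at D0 and 874 and 2449.8 CPM at D5, and the iron-storage chain Fth1 at 724 and 1424 CPM at D0 and 1397 and 2437 CPM at D5. Eno3, an enolase, was among the 10 highest in both subsets, on 2 and 4 UMIs at D0 and 27 and 74 at D5.

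The heat shock genes Hspa1b, Hspa1a and Hsph1 were lower at D5 in both subsets. Hspa1b was at 1476 and 1161 CPM at D0 and 335 and 255 CPM at D5 in cycling cDC1 and cDC2, or -2.14 (-2.33 to -1.95) and -2.19 (-2.35 to -2.03), and Hsph1 at 366 and 245 CPM at D0 and 74.3 and 27.7 CPM at D5, or -2.30 (-2.72 to -1.90) and -3.15 (-3.58 to -2.72). Hspa1a and Hspa1b are near-identical copies, so how reads divide between them is uncertain, and both moved alike. Non-cycling nuclei showed -2.20 and -2.47 for Hspa1b and -2.72 and -2.89 for Hsph1. H2-Q6, an MHC class I gene of a family with near-identical members, was at 226 and 234 CPM at D0 and 57.9 and 54.9 CPM at D5, and Frmd4b at 180.5 and 219 CPM at D0 and 49.2 and 71.4 CPM at D5. Il15, the cytokine that sustains NK cells, was at 36.1 and 22.5 CPM at D0 and 2.19 and 5.78 CPM at D5, on 20 and 14 UMIs at D0 and 2 and 14 at D5. Timp3 was named by the rule in cDC1, but all of its 19 UMIs at D0 came from 1 nucleus.

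**Figure D4:**
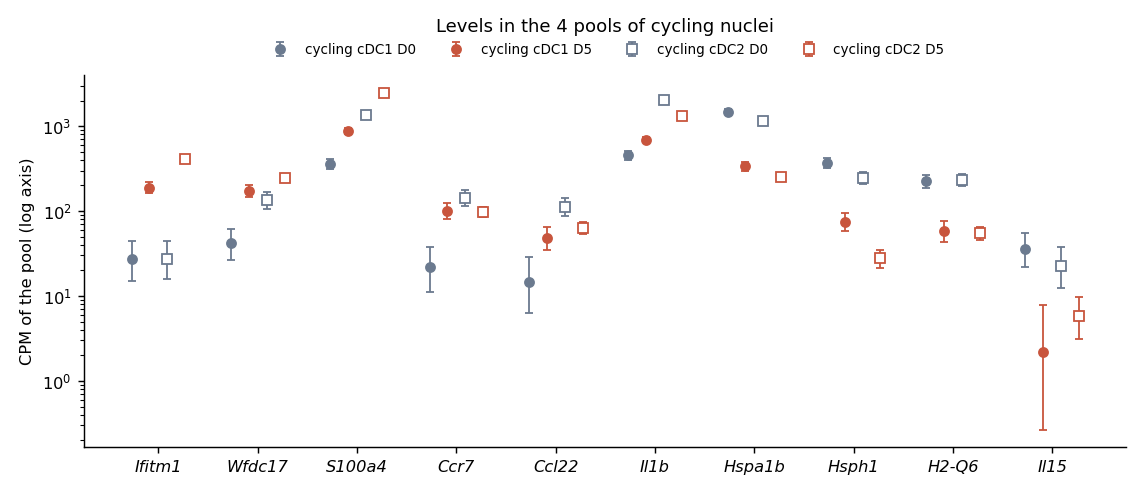
Level in CPM (y axis, log scale) of 10 genes in the pools of cycling cDC1 (filled circles) and cycling cDC2 (open squares) at D0 (grey) and D5 (red), with exact 95% Poisson intervals for counting error. Ifitm1, Wfdc17 and S100a4 lie higher at D5 in both subsets, Hspa1b, Hsph1, H2-Q6 and Il15 lower, and Ccr7, Ccl22 and Il1b higher in cDC1 and lower in cDC2.

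The remaining genes named between the days are given with their values in both subsets, and the difference between the subsets was not tested. Cycling cDC1 had Ccr7 at 21.7 CPM at D0 and 101 at D5, from 9 and 32 nuclei, a ratio of 2.21 (1.34 to 3.22), with 20 of the 92 UMIs at D5 in 1 nucleus. At 2000 UMIs per nucleus Ccr7 was found in 3.05% and 9.60% of cycling cDC1 and in 12.0% and 9.63% of the lymphoid nuclei at D0 and D5, so its share in cycling cDC1 did not exceed that of nuclei outside the cDC, some of which, such as naive T cells, can express Ccr7 themselves. Cycling cDC2 were at 142 and 97.8 CPM, a ratio of -0.53 (-0.89 to -0.16) whose interval included 0 with TMM factors (-0.71 to 0.02). The other genes named as higher in cycling cDC1 were AA467197, Eef2kmt and Cox11. AA467197 was at 3.61 and 38.2 CPM at D0 and D5 in cDC1 and at 90.2 and 142 in cDC2. Those named as higher in cycling cDC2 were Mmp14, Ccl1, Mir99ahg, Cdh1, Slc35a1, Fxyd7, Plpp5 and Dscam, with 0 to 13 UMIs each at D0. Mmp14, a membrane-bound matrix metalloproteinase, had 1 UMI at D0 and 84 at D5 in cycling cDC2, and 9 and 11 in cycling cDC1. The chemokine Ccl1 had 0 UMIs in both subsets at D0 and 12 and 51 at D5, in 9 cycling cDC1 and 26 cycling cDC2, with 19 of the 51 in 1 nucleus. Cdh1 (E-cadherin) was at 4.83 and 35.1 CPM in cycling cDC2. The lower genes named besides those above were March3, H2-T22 and Cd81 in cDC1 and Mt2, Ifng, Aoah, Skap1, Dok2 and Cacna1e in cDC2. The tetraspanin Cd81 was at 77.6 and 27.4 CPM at D0 and 17.5 and 12.8 CPM at D5, and metallothionein 2 (Mt2) at 10.8 and 49.9 CPM at D0 and 3.28 and 5.78 CPM at D5. Skap1, a T cell adaptor, was at 55.9 and 56.4 CPM at D0 and 20.8 and 9.91 CPM at D5, and Ifng, a product of NK and T cells, at 21.7 and 29.0 CPM at D0 and 1.09 and 2.48 CPM at D5. In non-cycling cDC2 the ratios of D5 over D0 were -1.99 for Skap1 and -3.42 for Ifng, and the NK and T cell marker list was lower at D5 as well (below).

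The cycle lists differed between the days in unequal measure. Mitosis genes had medians of -0.43 in cycling cDC1 and -0.40 in cycling cDC2 at D5 over D0, with 4 of 43 and 3 of 44 members above 0, against 3018 of 7799 and 3903 of 9480 of all genes. In each subset 1 member was 2-fold lower, no more than the background of 5.55% and 5.22%, while replication genes had medians of 0.00 and -0.02. Against the median of all genes (-0.14 and -0.10) the mitosis list stayed lower. In non-cycling cDC1 the median of the mitosis list was -0.62, against -0.24 over all genes. There 2 of 28 members lay above 0, against 3597 of 11680 of all genes. The summed level at D0 and D5 was 427 and 293 CPM in non-cycling cDC1 and 391 and 268 CPM in non-cycling cDC2. Lower mitosis transcripts at D5 were thus not particular to the cycling nuclei. Polo-like kinase 1 (Plk1) was at 45.1 and 38.6 CPM at D0 and 24 and 26.8 CPM at D5 in cycling cDC1 and cDC2, the checkpoint kinase Bub1 at 75.8 and 80.5 CPM at D0 and 53.5 and 44.2 CPM at D5 and the citron kinase Cit at 164 and 153 CPM at D0 and 103 and 85.4 CPM at D5. Proliferating cell nuclear antigen (Pcna), the replication clamp, was at 401 and 372 CPM at D0 and 400.0 and 328 CPM at D5, and Mcm3 at 129.9 and 109.5 CPM at D0 and 134 and 120.1 CPM at D5. The 5 cycle genes of the rule were at lower CPM at D5 in cDC1 and all but Knl1 in cDC2, and the cycling nuclei of D5 were deeper by median UMIs (4910 against 3751 in cDC1 and 5678 against 3756 in cDC2). The part of this depth in the lower CPM was not tested.

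Markers of other cells were present in the cycling pools. In cycling cDC1 and cDC2 the summed level of 15 NK and T cell markers was 993 and 1139 CPM at D0 and 673 and 961 CPM at D5, and 4 of 8 and 5 of 12 measured members were 2-fold lower at D5, against 5.55% and 5.22% of all genes. In non-cycling nuclei 10 of 14 and 11 of 14 were, against 9.78% and 11.4% of all genes. The 10 plasmacytoid markers summed to 615, 824, 632 and 681 CPM, the 11 macrophage markers to 39.7, 45.1, 35.0 and 40.5 CPM and the 10 monocyte and neutrophil markers to 552, 866, 589 and 717 CPM, in the same order. The 10 B cell and mast cell markers came to at most 19.3 CPM and the 10 liver parenchyma and endothelium markers to at most 56.6 CPM in any cycling pool. Each list was below its level in the non-cycling nuclei of the same subset and day, except that in cDC1 the monocyte and neutrophil list was at 549 and 588 CPM and the B cell and mast cell list at 11.8 CPM at D0 in non-cycling nuclei. The rule caps the UMIs of Txk, Ncr1 and Cd3e, of Siglech and Grm8 and of the C1q genes, which stand in these lists. A cap in UMIs gives lower CPM in deeper nuclei, and the cycling nuclei and the D5 library were deeper. The lower levels of the NK and T cell, plasmacytoid and macrophage lists thus follow in part from the rule and are a description. The part of RNA from other cells in the genes above was not tested.

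Open chromatin of the same nuclei was not used by the rule. Cycling nuclei held more ATAC fragments in peaks. The median was 7306 fragments in cycling against 4914 in non-cycling cDC1 at D0 (1.49-fold) and 5175 against 3990 at D5 (1.30-fold). In cDC2 it was 7798 against 4302 at D0 (1.81-fold) and 5741 against 3583 at D5 (1.60-fold). Nuclei with 1 to 3 cycle UMIs lay between, at 5441 and 4806 fragments in cDC1 and cDC2 at D0 and 4182 and 3885 at D5. Cycling nuclei were however deeper in RNA as well, and fragments per UMI were fewer, 2.07 against 2.32 and 2.14 against 2.22 at D0 and 1.09 against 1.29 and 1.14 against 1.29 at D5. Among D5 nuclei of 2000 to 4000 UMIs the ratio of medians was 1.16 in cDC1 and 1.19 in cDC2, from 4000 to 8000 UMIs it was 0.819 and 0.879, and above 8000 it was 0.861 and 0.917. At D0 the ratios were 1.36 and 1.39 from 2000 to 4000 UMIs and 0.902 and 1.18 from 4000 to 8000 UMIs, so cDC2 of D0 stayed above 1 in both ranges, while the other ratios from 4000 to 8000 UMIs lay below 1. Under 2000 UMIs the D0 ratios were 0.571 and 0.612, on 6 and 5 cycling nuclei.

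Start sites of cycle genes were compared between cycling and non-cycling nuclei. Fragments within 2 kb of the start site were summed and scaled to the peak fragments of the pool. In cycling over non-cycling nuclei the medians of the mitosis list were 0.12 and 0.09 in cDC1 at D0 and D5 and 0.07 and 0.10 in cDC2, and none of its 42 or 43 measured members was 2-fold apart in any contrast. Over all start sites 4.48% were 2-fold apart in either direction in cDC1 at D0, 5.36% in cDC1 at D5, 4.85% in cDC2 at D0 and 5.42% in cDC2 at D5, so 0 of 42 or 43 was near the background. The RNA ratios of the same genes are higher in part by the rule. Of the replication list 1 of 47 members was 2-fold higher in cDC1 at D5, Pola1 (a subunit of the primase polymerase) at 1.08 (0.42 to 1.69), and none in the other contrasts, and its medians were 0.17, 0.23, 0.02 and 0.09. The Top2a start site was at 51.9 CPM of peak fragments in cycling and 49.1 in non-cycling cDC2 at D5, a log2 ratio of 0.08 (-0.18 to 0.33). In cDC1 at D5 Top2a was at 51.9 and 48.3. The Mki67 start site had ratios of 0.57 (0.17 to 0.94) in cDC1 and 0.43 (0.07 to 0.77) in cDC2 at D0 and of 0.23 (-0.16 to 0.60) and 0.23 (0.02 to 0.43) at D5. These are the promoters printed above, in nuclei where Top2a and Mki67 RNA was absent from the non-cycling pool by the rule.

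**Figure D5:**
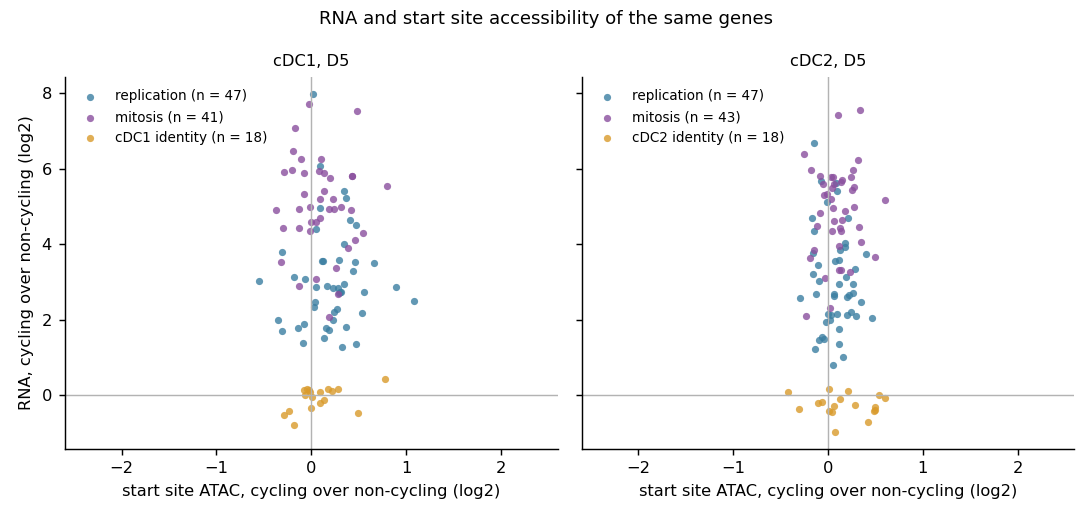
Log2 ratio of cycling over non-cycling nuclei at D5 for ATAC fragments within 2 kb of the start site (x axis) and for RNA (y axis) of the same genes, in cDC1 and cDC2. Mitosis (purple) and replication (blue) genes are spread along the RNA axis, with RNA medians of 4.93 and 2.85 in cDC1 and 4.97 and 2.70 in cDC2, while nearly all lie within 1 of 0 on the ATAC axis. Identity genes of the subset itself (orange) have medians of 0.04 for RNA and 0.00 for ATAC in cDC1 and -0.26 and 0.10 in cDC2.

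Accessibility at the start sites of the lineage genes was compared between the subsets called from RNA. In cycling nuclei at D5 the ratio of cDC1 over cDC2 at the start site was 1.14 (0.35 to 1.91) for Xcr1, 0.52 (-0.06 to 1.08) for Clec9a, -1.24 (-3.07 to 0.20) for Clec10a, -1.99 (-4.34 to -0.31) for Cd209a and -1.99 (-5.12 to 0.04) for Sirpa. The 3 cDC2 genes had 2 to 4.5 fragments in cycling cDC1 and passed the minimum of 20 through the cDC2 pool, so their direction was largely set by the minimum and is not counted. Of the cDC1 genes, Xcr1 was 2-fold higher, against 1.49% of all start sites, and the interval of Clec9a included 0. At D0, 3 of the 5 could be measured and 0 were 2-fold apart, against 1.47% higher and 1.72% lower over all start sites, with 0.95 (0.22 to 1.70) for Xcr1, 0.80 (0.17 to 1.45) for Clec9a and -0.68 (-2.08 to 0.60) for Clec10a. With a 10 kb window at D5, Xcr1 was at -0.10 and Clec9a at 0.43. These start sites are a reading of the same nuclei that the rule did not use. Of the cDC1 identity genes 14 of 16 lay above 0 (median 0.54) and 4 were 2-fold higher, Gcsam, Gpr141b, Ifi205 and Tlr3, for example 2.47 (1.65 to 3.34) at Tlr3. Start sites of the cDC2 list separated the subsets less, with a median of -0.11 and 2 of 17 members 2-fold lower, against 2.61% of all start sites.

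Peak regions shared by both libraries carried the same split. In cycling nuclei at D5, 5.42% of 37958 regions with 20 or more fragments were 2-fold higher and 9.11% 2-fold lower in cDC1 than in cDC2. Among regions 2-fold higher in non-cycling cDC1 at D0, 5379 in all, 1465 could be measured in cycling nuclei at D5, and 1393 of them (95.1%) lay in the same direction and 801 (54.7%) were 2-fold apart. Of 3017 regions of cDC2, 1522 could be measured, 1417 (93.1%) lay in the same direction and 799 (52.5%) were 2-fold apart. Ranked by the smaller of its 2 ratios, the first region for cDC1 was chr12:105621027-105621829 of build mm10, 18.3 kb from the start of Bdkrb1 (a bradykinin receptor), with 19 against 2 fragments at D0 and 20 against 8.5 at D5, a ratio of 2.71 (1.49 to 4.06) at D5. A region in the neighbourhood of Farp2, chr1:93525264-93526148, was at 2.51 (1.26 to 3.89) at D5, on 17.5 against 8.5 fragments, with 21.5 against 3 at D0. For cDC2, chr11:68457832-68458745, 26.2 kb from the start of Pik3r5 (a regulatory subunit of phosphoinositide 3-kinase gamma), had 2.5 against 32 fragments at D0 and 2 against 54.5 at D5, a ratio of -3.30 (-6.38 to -1.37) at D5. A region 36.5 kb from the start of Plb1, chr5:32195737-32196660, had 4 against 29.5 and 1.5 against 71 fragments, a ratio of -4.09 (-7.91 to -1.95) at D5. The cDC2 regions passed the minimum through the pool in which they are high, and so did the cDC1 regions at D0. The ratios of both are a description. The nearest start site was taken as a position, and no link between region and gene was tested.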

How the data were processed

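RNA and open chromatin were measured in nuclei of 2 libraries, D0 and D5. The deposited RNA files hold counts of UMIs per gene and called barcode, made by the authors' run of Cell Ranger, and the ATAC files hold counts of transposition cut sites per peak, made with Cell Ranger ARC 2.0.2 on build mm10 per the submitters' processing notes. Peaks were called in each library alone, and 2 counts were taken as 1 fragment. Whether strand was used in counting is not given in the sources used here.

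The RNA matrices held 16260 and 27873 barcodes and 44496348 and 94374499 UMIs. Barcodes of the D5 peak matrix were not used here, so its columns were joined to RNA by identical counts over all 32285 genes (27873 of 27873). The same join at D0 matched 16260 of 16260 and gave the same barcode each time. Of the nuclei with 1000 or more UMIs, cycling nuclei were taken by the rule in the text, and the members and 19 gene lists were chosen with earlier results of these data known. With 1 library per day no test over samples is possible. Counts were summed per pool and given as CPM with exact Poisson intervals, shares with Clopper-Pearson intervals, differences of shares with Newcombe intervals and ratios with exact conditional binomial intervals. The interval of a ratio was tested on simulated data. Genes and start sites needed 20 or more counts in a pair of pools.

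Besides the lists, the text names, without mitochondrial genes and unnamed gene models, the 10 genes at either end by the smaller of the ratios over all contrasts (cDC1 against cDC2, cycling against non-cycling), the 10 at either end by the nearer counting limit (D5 against D0), and up to 5 regions at either end, of which not all are printed. Doublets were scored with Scrublet in scanpy 1.11.5 and kept. Its own thresholds marked 40.1% of D0 and 9.99% of D5 nuclei, so a score of 0.2, reached by 23.5% and 25.5%, was used for values without high-scoring nuclei. Alternatives were 3 or 6 cycle UMIs, no Top2a, a lineage excess of 2 UMIs, 0 UMIs of other lineages, at most 10% mitochondrial UMIs, thinning, other filters and TMM factors (edgeR 4.0.16, R 4.3.3). Statistics used Python 3.11.15, numpy 2.4.6, pandas 2.3.3 and scipy 1.17.1. Promoters are from RefSeq, matched by symbol and nearest to the start site in the files. One gene that the naming rule selects is not reported here.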

Additional observations from a re-analysis of the deposited data

Results flagged for a closer look

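A total of 5 genes differed between the days in opposite directions in the 2 subsets of cycling nuclei, each with a counting interval away from 0. They were found by a search over all listed and named genes measured in both subsets. The share over all genes was not measured, so the count itself is not read as a result. The difference between the subsets was not tested, since each day is 1 library, and each value below is the log2 ratio of D5 over D0 in cDC1 minus that in cDC2. For Ccr7 it was 2.75 (2.21 in cDC1 and -0.53 in cDC2) and for the chemokine Ccl22 2.55 (1.74 and -0.82). For Il1b it was 1.25 (0.61 and -0.64), and for Samsn1, an adaptor of haematopoietic cells, 1.06 (0.66 and -0.40). For Ciita, the activator of MHC class II genes, it was -0.73 (-0.38 and 0.35). With TMM factors the interval of Ccr7 in cDC2 (-0.71 to 0.02) and that of Ciita in cDC1 (-0.48 to 0.13) included 0, and those of Ccl22, Il1b and Samsn1 did not. The Ccl22 UMIs of cycling cDC1 came from 5 nuclei at D0 and 15 at D5, with 21 UMIs in 1 of the latter, and the Ccr7 UMIs came from 9 and 32 nuclei, with 20 of the 92 at D5 in 1 nucleus. In nuclei thinned to equal depth, Il1b was found in 42.0% of cycling cDC1 and 42.1% of the lymphoid nuclei at D0. At D5 these shares were 54.8% (47.2 to 62.3) and 43.9% (36.6 to 51.3). The share of Il1b in cycling cDC1 at D0 thus did not exceed that of nuclei outside the cDC.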

How the results depend on the processing

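Of 110 alternative values, 86 stayed within the counting interval of the value reported or, for counts of genes, within 1.5 times of it, 22 moved further and 2 turned direction. Some of the 86 could not move. The limit of 10% mitochondrial UMIs left every value as reported, and a lineage excess of 2 UMIs cannot change the share of all cDC. Start sites of lineage genes entered only as a count of 5 genes, which includes the cDC2 genes not counted above. The Xcr1 start site turned direction with the 10 kb window (above), although that count stayed. The D5 minus D0 difference in cycling share of all cDC was -0.648 points at 1000 UMIs per nucleus, -3.97 at 2000 UMIs and -0.975 without Top2a. For cDC2 these values were -0.603, -3.84 and -0.602. For cDC1 the value at 2000 UMIs was -3.65, and with a wide interval around the -0.893 reported it was -1.97 with a lineage excess of 2 UMIs and -0.352 without Top2a. Thinning to 2000 UMIs also leaves out shallower nuclei. The nuclei of 2000 or more UMIs without thinning, chosen after seeing the data, gave -6.06, -4.44 and -5.93 points for all cDC, cDC1 and cDC2. The cDC2 share in cycling minus non-cycling nuclei at D0 was -6.05 points at 1000 and -4.66 at 2000 UMIs and -4.79 in the nuclei of 2000 or more UMIs without thinning, and at D5 -21.9 with doublet scores under 0.2.

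The number of genes 2-fold apart moved with the filter on low counts, and by more than the number of genes compared, and the cause was not tested. Between cycling cDC1 and cDC2 at D5 it was 947 as reported, 498 with 50 or more UMIs and 3653 with 1 or more. Between the days it was 574, 176 and 4174 in cDC1 and 803, 307 and 3708 in cDC2. With TMM factors the split of cDC1 over cDC2 at D5 was 265 higher and 719 lower in place of 300 and 647. With doublet scores under 0.2 it was 404 higher and 592 lower among 8180 genes, in place of 300 and 647 among 9554. Genes higher in cDC1 were then 40.6% of those 2-fold apart, in place of 31.7%. Between the days the total changed little but the split turned, from 141 higher and 433 lower to 286 and 260 in cDC1 and from 308 and 495 to 485 and 305 in cDC2.

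The ratio of ATAC fragments in cDC2 at D5, 1.60, was 1.45 with doublet scores under 0.2 and 1.49 with 0 UMIs of other lineages. As the median over bins of RNA UMIs it turned direction, to 0.861 in cDC1 and 0.917 in cDC2, and the cause was not tested. No paired analysis was possible because each day has 1 library. Depth limits genes of few UMIs, since 3 UMIs in the cycling cDC1 pool of D0 correspond to 5.41 CPM.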
